A study of Homo sapiens with 16 samples.

Results

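The genes described here encode 10 heat shock proteins of the cytosol and the mitochondrion: HSPA1A, HSPA1B, HSPA8, HSPH1, HSP90AA1, HSP90AB1, DNAJB1, HSPD1, HSPE1 and HSPB1. They were listed by name, and all 10 were found among the 18332 genes of the deposited table. The samples were MDA-MB-231 and MDA-MB-468 cells, 2 established human breast cancer lines labelled as estrogen receptor negative. Each line was grown for 48 hours in low glucose (5 mM) or in high glucose (25 mM), with 4 flasks sequenced in each of the 4 groups, so that 16 mRNA libraries were compared. By the study's methods, all cells were held in medium without serum and were first conditioned in low glucose. For routine growth MDA-MB-231 was kept in DMEM and MDA-MB-468 in RPMI, so effects of the line and of this medium cannot be told apart. None of these libraries is labelled as a control for osmolarity, so here the higher glucose and the higher osmolarity of the medium cannot be told apart. In some experiments the study added mannitol to its low glucose controls, and it reports that proliferation and migration did not differ with it. The labels do not say whether the 4 flasks of a group came from separate cultures, and p-values then measure only the spread between these flasks.

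Heat shock proteins are chaperones that keep other proteins folded. In the cytosol the HSP70 proteins bind unfolded stretches of a client, J-domain proteins such as DNAJB1 deliver the client and start ATP hydrolysis, and exchange factors such as HSPH1 release it; HSP90 then completes the folding of many kinases and receptors. In the mitochondrion HSPD1 forms a barrel in which proteins fold and HSPE1 forms its lid, while HSPB1 is a small heat shock protein that holds unfolding proteins without ATP. Many of these genes are induced under heat and other stress by the transcription factor HSF1, which binds repeats of short units in their promoters, and several are expressed at high levels in tumor cells without any stress.

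The libraries held 14094597 to 24425916 reads assigned to genes, and a floor of 3 reads, which lay far below each of the 10 genes, came to 0.123 to 0.213 CPM (reads after scaling of all libraries to the same total). The deposited values had been scaled by the size factors of the libraries and are called normalised reads below. ESR1, the estrogen receptor gene, had at most 67 reads in a library (4.41 CPM). VIM, an intermediate filament gene of mesenchymal cells, had a mean of 96228 normalised reads in MDA-MB-231 but of 21.5 in MDA-MB-468 in low glucose, and CDH1, the epithelial cadherin, had 5.51 and 2007. These cells were measured in bulk, so fewer cells of a type and less RNA per cell cannot be told apart.

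The promoters of the genes were examined first, because HSF1 binds its target genes through the heat shock element. Windows from 250 bases before to 50 bases after the start of transcription were taken from RefSeq (build GRCh38.p14), which held 16 windows for the 10 genes, and for each gene the window nearest the start of its canonical transcript was used. The core of the element was searched as GAANNTTC or TTCNNGAA, each of which reads the same on both strands; neighbouring cores in a run overlap by 3 bases. A core was present in 7 of the 10 windows, against 13.5% of all 35116 windows of this length, and 3 or more alternating units in a row were present in 3 of the 10 (HSPA8, HSP90AA1 and HSPD1 had 3, 3 and 4 units), against 0.490% of all windows. The windows of HSPH1, HSPE1 and HSP90AB1 held no core. That of HSPH1 lay 484 bases from the start of its canonical transcript, and a second HSP90AB1 window, at a start 842 bases from the canonical one, held 4 cores. TATAAA, on either strand, was found only in the windows of HSPA1A and HSPA1B among these 10 (11.5% of all windows), and CCAAT in 4 of the 10 (34.6% of all windows).

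The 250 bases before the start are shown for the inducible HSP70 pair, whose promoters are nearly the same, and for 4 genes with cores at other distances from the start. All are written 5′ to 3′ along the strand of the gene, and capitals mark the cores.
HSPA1A (chr6:31815293-31815542, plus strand): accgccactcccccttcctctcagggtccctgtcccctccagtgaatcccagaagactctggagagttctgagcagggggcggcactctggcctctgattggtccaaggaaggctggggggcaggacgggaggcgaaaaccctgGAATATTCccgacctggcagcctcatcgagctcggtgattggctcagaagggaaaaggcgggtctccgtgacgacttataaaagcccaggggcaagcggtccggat
HSPA1B (chr6:31827488-31827737, plus strand): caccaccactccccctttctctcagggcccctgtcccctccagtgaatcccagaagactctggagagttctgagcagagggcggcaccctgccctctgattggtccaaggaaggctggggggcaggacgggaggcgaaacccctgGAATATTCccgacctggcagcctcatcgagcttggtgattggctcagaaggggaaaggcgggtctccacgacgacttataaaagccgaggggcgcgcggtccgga
HSPA8 (chr11:123062137-123062386, minus strand): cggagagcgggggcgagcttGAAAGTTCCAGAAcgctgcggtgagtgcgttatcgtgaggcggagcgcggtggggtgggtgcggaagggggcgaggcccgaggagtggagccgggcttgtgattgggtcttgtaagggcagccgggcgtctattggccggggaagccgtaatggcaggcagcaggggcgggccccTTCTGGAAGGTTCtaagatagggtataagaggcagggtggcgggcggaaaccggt
HSP90AA1 (chr14:102087045-102087294, minus strand): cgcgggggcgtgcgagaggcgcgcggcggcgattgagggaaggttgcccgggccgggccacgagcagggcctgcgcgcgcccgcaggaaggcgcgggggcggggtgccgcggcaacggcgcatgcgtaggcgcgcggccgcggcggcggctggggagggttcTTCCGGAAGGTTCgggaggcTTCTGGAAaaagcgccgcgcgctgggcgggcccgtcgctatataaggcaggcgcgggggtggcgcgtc
HSPD1 (chr2:197499841-197500090, minus strand): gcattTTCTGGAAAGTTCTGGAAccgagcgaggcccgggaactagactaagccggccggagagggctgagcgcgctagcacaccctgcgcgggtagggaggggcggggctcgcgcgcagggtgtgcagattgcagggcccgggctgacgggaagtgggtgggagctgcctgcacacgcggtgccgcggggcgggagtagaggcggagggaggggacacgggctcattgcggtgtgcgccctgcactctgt
HSPB1 (chr7:76302423-76302672, plus strand): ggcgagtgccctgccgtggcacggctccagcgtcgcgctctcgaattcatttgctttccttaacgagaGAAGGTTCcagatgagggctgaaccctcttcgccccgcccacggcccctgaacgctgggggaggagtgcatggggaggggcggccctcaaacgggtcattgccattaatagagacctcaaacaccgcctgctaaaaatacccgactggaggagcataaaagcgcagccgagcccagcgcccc
The 300-base windows of HSPA1A and HSPA1B were identical at 277 positions (92.3%), and both held a single core about 105 bases before the start. HSPD1 and HSPE1 are transcribed away from each other from starts 539 bases apart on GRCh37. The run of 4 units in the HSPD1 window lies 228 to 245 bases before the HSPD1 start and 294 to 311 bases before the HSPE1 start, just outside the HSPE1 window.

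Levels between genes were compared per length, as reads scaled to the library total and to the length of the canonical transcript (RPKM). HSPA8, the constitutive cytosolic HSP70, had the highest level of the 10 genes in all 4 groups, from 1002 ± 19.6 RPKM (SD, n = 4) in MDA-MB-231 in low glucose to 1611 ± 46.9 in MDA-MB-468 in low glucose. HSP90AB1, the constitutive cytosolic HSP90, followed, with 4 group means between 820 and 829 RPKM. HSP90AA1, the inducible cytosolic HSP90, came next, with group means from 418 to 491 RPKM. HSPH1 was lowest in each group, from 35.4 ± 1.54 RPKM in MDA-MB-231 in low glucose to 69.3 ± 2.13 in MDA-MB-468 in low glucose. Even this level stood above that of 88.2% of all genes of known length in the former group.

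Between these ends the order differed between the lines. In MDA-MB-231 in low glucose HSPB1 (190 RPKM), HSPA1B (143), DNAJB1 (125), HSPD1 (108), HSPE1 (70.9) and HSPA1A (55.3) followed each other with no overlap between neighbours over the 4 libraries. In MDA-MB-468 in low glucose HSPD1 (294 RPKM), HSPB1 (243), HSPE1 (226), HSPA1A (211), DNAJB1 (135) and HSPA1B (121) was the order, and the libraries of HSPB1 and HSPE1 overlapped. In high glucose the order was the same in each line except that HSPB1 of MDA-MB-468 reached 399 RPKM and overlapped HSP90AA1, above HSPD1 at 324. The middle ranks depended on the transcript taken: with the longest in place of the canonical transcript in low glucose HSPD1 moved from rank 7 to rank 9 of MDA-MB-231 and from rank 4 to rank 6 of MDA-MB-468, since its longest transcript is 4930 against 2245 bases. Most 100-base stretches of HSPA1A occur whole in HSPA1B, as described below, so the separate levels and ranks of these genes are uncertain. The plot of levels per length shows HSPA8 and HSP90AB1 apart from the rest in every group.

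**Figure D1:**
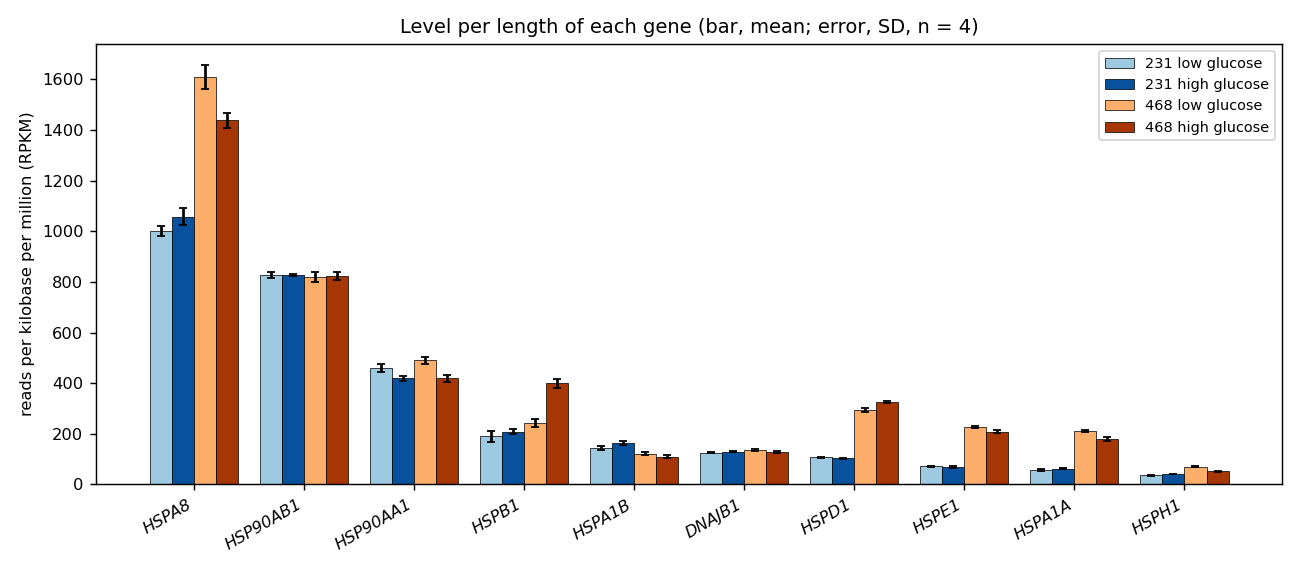
Mean RPKM (y axis, linear, from 0) of each of the 10 genes (x axis, ordered by MDA-MB-231 in low glucose) in the 4 groups, with SD over 4 libraries as error bars. HSPA8 is highest in all groups (1611 RPKM in MDA-MB-468 in low glucose), HSP90AB1 lies at 820 to 829 in each, and HSPD1, HSPE1 and HSPA1A are higher in MDA-MB-468. How reads divide between the near-identical HSPA1A and HSPA1B is uncertain.

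High glucose was then compared with low glucose within each line, which asks whether the added sugar changed the expression of these chaperones. Changes are given on the log2(normalised reads + 1) scale with a standard error, tested with limma across all genes of the line and adjusted by the Benjamini-Hochberg method at a threshold of 0.05. In MDA-MB-231, 2 of the 10 genes rose (HSPH1 and HSPA1B), 2 fell (HSP90AA1 and HSPD1) and 6 were not called, and the changes were between -0.16 and 0.17. Of all 14884 genes tested in this line 5.71% were called higher and 9.37% lower, so that 37.9% of the calls were rises (48.0% under quantile rescaling). In MDA-MB-468, 2 rose (HSPB1 and HSPD1), 6 fell (HSPH1, HSPA1A, HSP90AA1, HSPA8, HSPA1B and HSPE1) and 2 were not called, between -0.37 and 0.75, where 24.9% of 15757 genes were called higher and 22.7% lower. The 10 genes had a median change of 0.04 in the first line and of -0.11 in the second, beside 0.00 over all genes tested in either line. The 2 glucose groups did not overlap for 5 of the 10 genes in MDA-MB-231 and for 7 in MDA-MB-468, against 18.7% and 42.5% of all genes tested.

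Together the 10 genes took 0.720 to 0.734% of the reads of MDA-MB-231 in low glucose and 0.726 to 0.744% in high glucose, ranges that overlapped. In MDA-MB-468 they took 0.955 to 1.003% in low glucose and 0.899 to 0.934% in high glucose, and these ranges did not overlap. Such a sum is weighted toward abundant genes. In MDA-MB-468 the mean of HSPA8 moved from 3646 to 3256 CPM and that of HSP90AA1 from 1584 to 1353, while HSPB1 and HSPD1 rose.

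**Figure D2:**
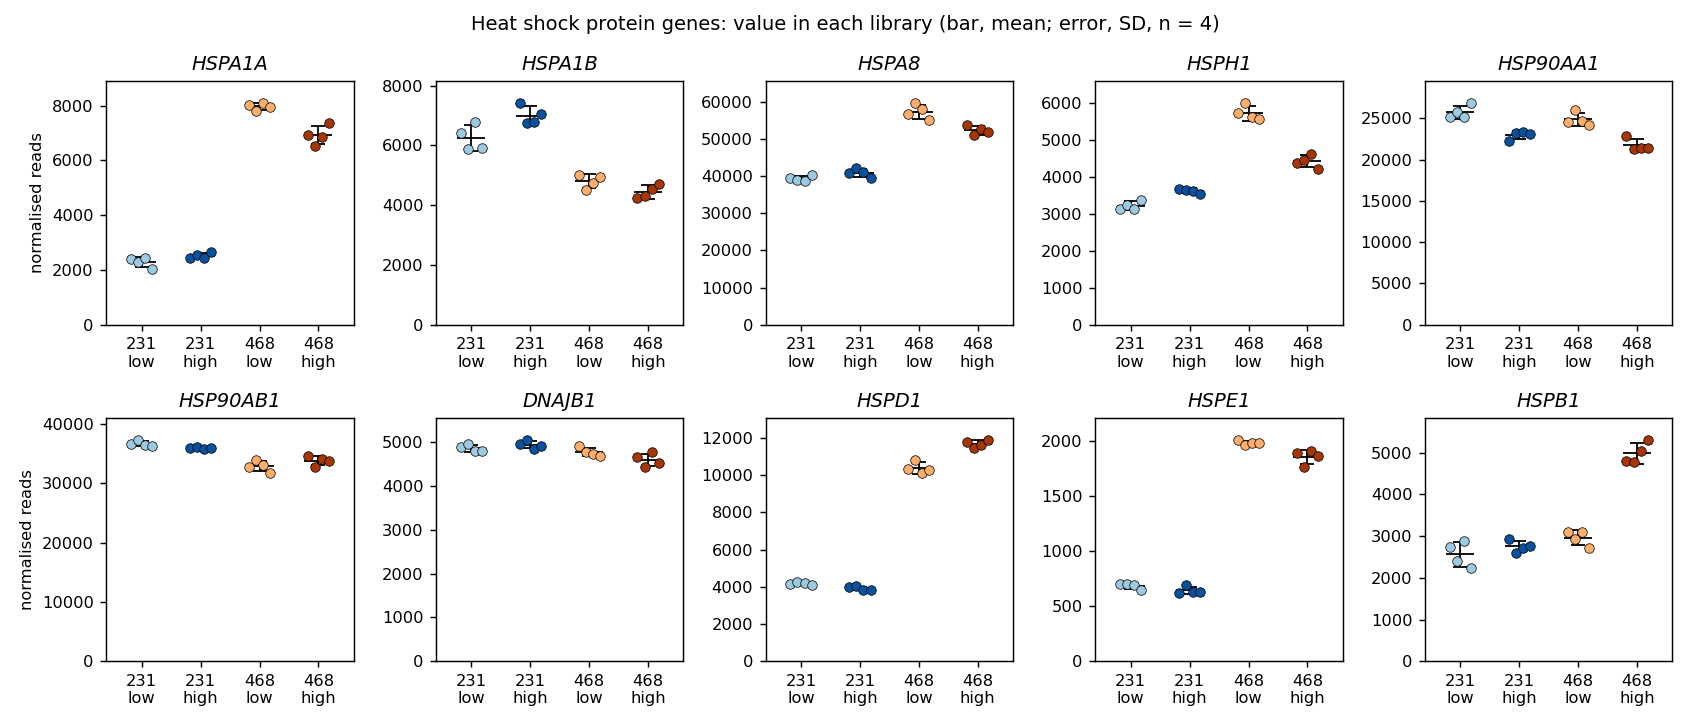
Normalised reads (y axes, linear, from 0, with a scale for each gene) of the 10 genes in each library of the 4 groups (x axes); points are libraries, horizontal bars the mean and error bars the SD of 4. HSPB1 in MDA-MB-468 moves from 2725 to 3107 in low glucose up to 4780 to 5306 in high glucose, while HSPH1 of the same line moves down from 5552 to 5992 to 4224 to 4609.

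The response of 6 genes differed between the lines when the difference itself was tested with limma over the 16 libraries: it was higher in MDA-MB-468 for HSPB1 and HSPD1 and lower for HSPH1, HSPA1A, HSPA1B and HSPA8. Of 17115 genes tested, 17.0% had a higher and 13.9% a lower response in MDA-MB-468. The remaining 4 genes (HSP90AA1, HSP90AB1, DNAJB1 and HSPE1) were not called, with differences between -0.08 and 0.07. HSP90AB1 was called above 0 under 4 of 27 alternatives and turned below 0, uncalled, under 1. The 4 were DESeq2, a correction for transcript length, and fits without replicate 2 of MDA-MB-468 in high or in low glucose. DNAJB1 was called lower under 2 of 27, one of them quantile rescaling (-0.16, adjusted p = 0.00138, limma).

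**Figure D3:**
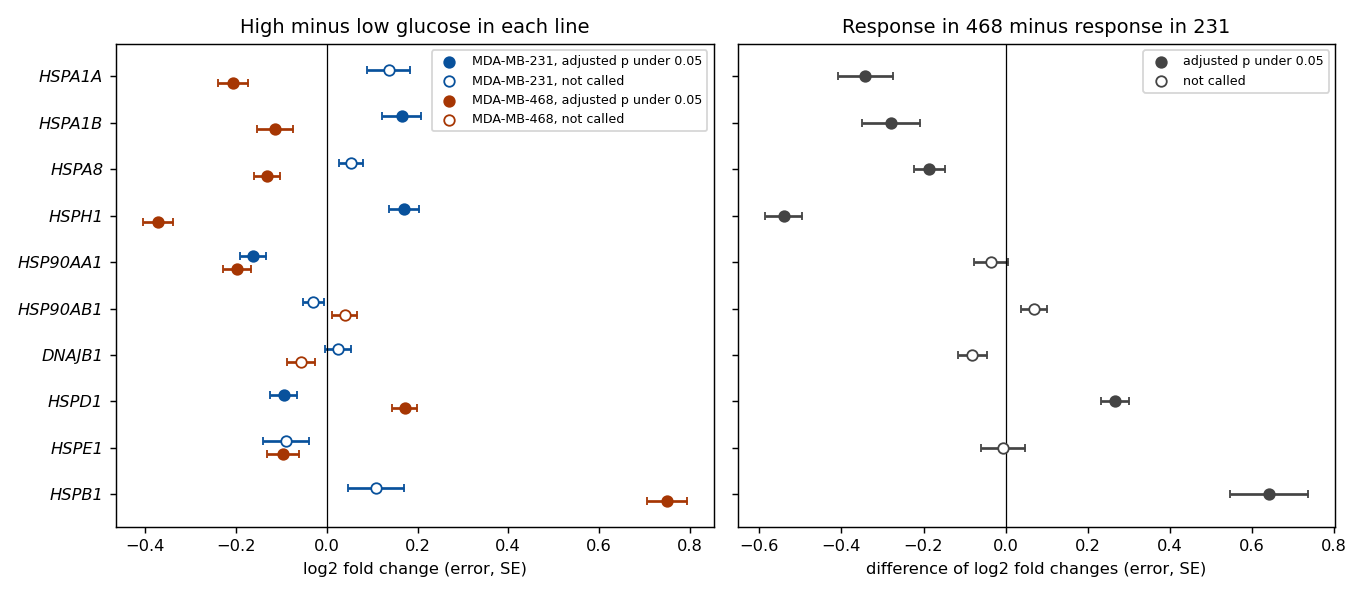
Left, log2 fold change (x axis) of high against low glucose for each gene (y axis) in MDA-MB-231 (blue) and MDA-MB-468 (brown); right, the response in MDA-MB-468 minus that in MDA-MB-231. Error bars are standard errors from limma, filled points have an adjusted p under 0.05, and the 4 genes of the HSP70 group at the top (HSPA1A, HSPA1B, HSPA8, HSPH1) lie right of 0 in MDA-MB-231, where 2 of them were called, and left of 0 in MDA-MB-468, where all 4 were.

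Of the cytosolic HSP70 system, HSPH1 and HSPA1B rose in MDA-MB-231, and these and HSPA1A and HSPA8 fell in MDA-MB-468. Of these 4 genes the responses of the lines differed most at HSPH1 (chr13, 31709110 to 31736525 on hg19, minus strand), the HSP110 exchange factor that releases clients from HSP70. In MDA-MB-231 its normalised reads were 3136, 3234, 3122 and 3386 in low glucose and 3677, 3651, 3626 and 3525 in high glucose. Every high glucose library was above every low glucose library. In MDA-MB-468 the low glucose libraries held 5716, 5992, 5611 and 5552 and the high glucose libraries 4386, 4463, 4609 and 4224, with all 4 of the latter lower. HSPH1 thus rose by 0.17 ± 0.03 (SE, adjusted p = 0.00192, limma) in MDA-MB-231 and fell by 0.37 ± 0.03 (adjusted p = 1.49e-07) in MDA-MB-468, and the responses differed by -0.54 ± 0.05 (adjusted p = 1.89e-07). These 3 calls held under each alternative processing that was run, with adjusted p-values up to 0.0127 in MDA-MB-231.

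HSPA1A and HSPA1B are neighbouring, stress-inducible HSP70 genes on chromosome 6 (31783320 to 31785723 and 31795515 to 31798031 on hg19, plus strand) that encode nearly the same protein. Their canonical transcripts were identical at 96.3% of the bases of the shorter one, and 1666 of the 2301 stretches of 100 bases in HSPA1A (72.4%) occurred whole in HSPA1B. Reads from these stretches can be placed on either gene, so the values of each are uncertain and the sum of the pair is given as well.

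In MDA-MB-231 HSPA1A had 2415, 2297, 2442 and 2051 normalised reads in low glucose and 2450, 2553, 2453 and 2641 in high glucose. The groups did not overlap, although replicate 3 of low glucose and replicate 1 of high glucose nearly met, and the change of 0.14 ± 0.05 was not called (adjusted p = 0.0665, limma); it was called by DESeq2 (adjusted p = 0.0289), under quantile rescaling (0.0274) and without replicate 3 of low glucose (0.0350). HSPA1B had 6426, 5867, 6787 and 5918 in low glucose and 7414, 6751, 6775 and 7059 in high glucose, which overlapped. It rose by 0.17 ± 0.04 (adjusted p = 0.0158), but was not called without replicate 1 of high glucose (0.14, adjusted p = 0.0637) or without replicate 2 of low glucose (0.14, adjusted p = 0.0592). With the reads of the pair summed, a test added after the data were seen, HSPA1A and HSPA1B together rose by 0.16 in MDA-MB-231 (adjusted p = 0.0142).

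In MDA-MB-468 HSPA1A had 8033, 7821, 8092 and 7946 normalised reads in low glucose and 6926, 6534, 6867 and 7351 in high glucose. All high glucose libraries were lower, and HSPA1A fell by 0.21 ± 0.03 (adjusted p = 7.48e-05, limma). HSPA1B had 5012, 4510, 4753 and 4955 in low glucose and 4225, 4299, 4539 and 4704 in high glucose. These groups overlapped; HSPA1B fell by 0.11 ± 0.04 (adjusted p = 0.0255), and this call was lost without replicate 1 or 2 of high glucose or replicate 1 or 4 of low glucose, with adjusted p-values between 0.0618 and 0.0921. The summed pair fell by 0.17 (adjusted p = 0.000385), and its response differed between the lines by -0.33 (adjusted p = 0.000494). Taken singly, the responses of HSPA1A and HSPA1B differed between the lines by -0.34 ± 0.07 and -0.28 ± 0.07 (adjusted p = 0.000805 and 0.00549).

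HSPA1A took 25.7 to 28.1% of the reads of the pair in MDA-MB-231 in low glucose and 24.8 to 27.4% in high glucose, and 61.6 to 63.4% and 60.2 to 62.1% in MDA-MB-468. No library of one line lay within the range of the other, whereas the glucose groups of each line overlapped. Whether the split reflects transcription or the placement of reads on near-identical copies was not tested.

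HSPA8 (chr11, 122928197 to 122933938 on hg19, minus strand), which serves protein folding and clathrin uncoating in unstressed cells, had 56636, 59595, 57940 and 55171 normalised reads in low glucose and 53707, 51052, 52619 and 51790 in high glucose in MDA-MB-468. The groups did not overlap, and HSPA8 fell by 0.13 ± 0.03 (adjusted p = 0.00113, limma). In MDA-MB-231 it had 39448, 38950, 38768 and 40167 in low glucose and 40735, 42079, 41118 and 39361 in high glucose, which overlapped, and the change of 0.05 ± 0.03 was not called (adjusted p = 0.211). The difference between the responses of HSPA8 was -0.19 ± 0.04 (adjusted p = 0.00108). Under quantile rescaling, which fixes a gene's value by its rank in the library, HSPA8 of MDA-MB-468 showed no change (adjusted p = 1) and the difference between the lines was -0.08 and not called (adjusted p = 0.105). 

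DNAJB1 (chr19, 14625581 to 14671203 on hg19, minus strand), the main inducible J-domain partner of HSP70, was not called in either line. Its libraries lay between 4785 and 4946 normalised reads in low glucose and between 4841 and 5041 in high glucose in MDA-MB-231, and between 4680 and 4902 and between 4426 and 4758 in MDA-MB-468. The groups overlapped in both lines. The changes of DNAJB1 were 0.02 ± 0.03 (adjusted p = 0.631, limma) and -0.06 ± 0.03 (adjusted p = 0.142); the first turned to -0.0031 with a correction for transcript length, and the second was called under that correction (-0.07, adjusted p = 0.0435) and under quantile rescaling (-0.09, adjusted p = 0.0137).

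Of the HSP90 genes, HSP90AA1 fell in both lines and HSP90AB1 was called in neither. HSP90AA1 (chr14, 102547079 to 102606036 on hg19, minus strand) had 25206, 25815, 25129 and 26853 normalised reads in low glucose and 22328, 23188, 23356 and 23148 in high glucose in MDA-MB-231. In MDA-MB-468 it had 24592, 26055, 24711 and 24267 in low glucose and 22848, 21310, 21364 and 21379 in high glucose. The groups overlapped in neither line. HSP90AA1 fell by 0.16 ± 0.03 (adjusted p = 0.000636, limma) in MDA-MB-231 and by 0.20 ± 0.03 (adjusted p = 5.29e-05) in MDA-MB-468, and the responses differed by -0.03 ± 0.04 (adjusted p = 0.577). It was the only one of the 10 genes called lower in both lines, and both calls held under each alternative run.

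HSP90AB1 (chr6, 44213903 to 44221625 on hg19, plus strand) had between 36349 and 37354 normalised reads in low glucose and between 35856 and 36133 in high glucose in MDA-MB-231. These ranges did not overlap, yet the change of -0.03 ± 0.02 was not called (adjusted p = 0.465, limma). In MDA-MB-468 the ranges of HSP90AB1 were 31788 to 33939 and 32808 to 34657, which overlapped, and the change of 0.04 ± 0.03 (adjusted p = 0.252) turned to -0.08 under quantile rescaling, where it was called (adjusted p = 0.0174). Per length, HSP90AA1 stood at 0.544 to 0.585 times HSP90AB1 in MDA-MB-231 in low glucose and at 0.492 to 0.516 in high glucose, and at 0.590 to 0.608 and 0.495 to 0.522 in MDA-MB-468. The ratio was lower in every high glucose library of both lines; this ratio was chosen after the values were seen and was not tested.

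The mitochondrial pair HSPD1 and HSPE1, HSP60 and HSP10 by their older names, did not move together in MDA-MB-468. HSPD1 (chr2, 198351308 to 198381461 on hg19, minus strand) had 10325, 10807, 10100 and 10267 normalised reads in low glucose and 11772, 11461, 11614 and 11887 in high glucose. HSPE1 (chr2, 198364864 to 198368173, plus strand), next to it on the other strand, had 2008, 1960, 1981 and 1976 in low glucose and 1891, 1761, 1905 and 1859 in high glucose. All 4 high glucose libraries were above the low glucose libraries for HSPD1 and below them for HSPE1. HSPD1 rose by 0.17 ± 0.03 (adjusted p = 8.06e-05, limma), and this held under each alternative run. HSPE1 fell by 0.10 ± 0.03 (adjusted p = 0.0291), a call lost without replicate 2 of high glucose or replicate 1, 3 or 4 of low glucose, with adjusted p-values between 0.0531 and 0.0875.

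In MDA-MB-231 HSPD1 had 4158, 4249, 4229 and 4112 normalised reads in low glucose and 3975, 4033, 3832 and 3848 in high glucose. The groups did not overlap and HSPD1 fell by 0.09 ± 0.03 (adjusted p = 0.0412, limma), but 9 of the 19 alternatives no longer called it. These were quantile rescaling (-0.05, adjusted p = 0.282), the replicate block (adjusted p = 0.0861), edgeR's quasi-likelihood test (adjusted p = 0.0528) and each fit without replicate 1, 3 or 4 of high glucose or replicate 1, 2 or 3 of low glucose, with adjusted p-values from 0.0694 to 0.129. HSPE1 had 703, 701, 689 and 645 in low glucose and 623, 690, 631 and 630 in high glucose, where replicate 2 of high glucose lay apart from the other 3 and within the low glucose range. Its change of -0.09 ± 0.05 was not called (adjusted p = 0.268) except with a correction for transcript length (-0.14, adjusted p = 0.0477).

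The response of HSPD1 was 0.27 ± 0.03 higher in MDA-MB-468 than in MDA-MB-231 (adjusted p = 1.66e-05, limma), and that of HSPE1 did not differ by more than its error (-0.01 ± 0.05, adjusted p = 0.945; 0.02 with a correction for transcript length). Per length, HSPE1 stood at 0.731 to 0.790 times HSPD1 in MDA-MB-468 in low glucose and at 0.619 to 0.661 in high glucose, with no overlap. In MDA-MB-231 the ranges were 0.632 to 0.682 and 0.631 to 0.690. The annotated HSPD1 gene spans the HSPE1 gene on the other strand, and whether the counting used strand is not given in the sources used here, so reads of the pair may not be fully separated. The share of reads from the mitochondrial genome moved from 2.74 to 3.15% in low glucose to 2.14 to 2.40% in high glucose in MDA-MB-468; its part in the HSPD1 result was not tested.

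**Figure D4:**
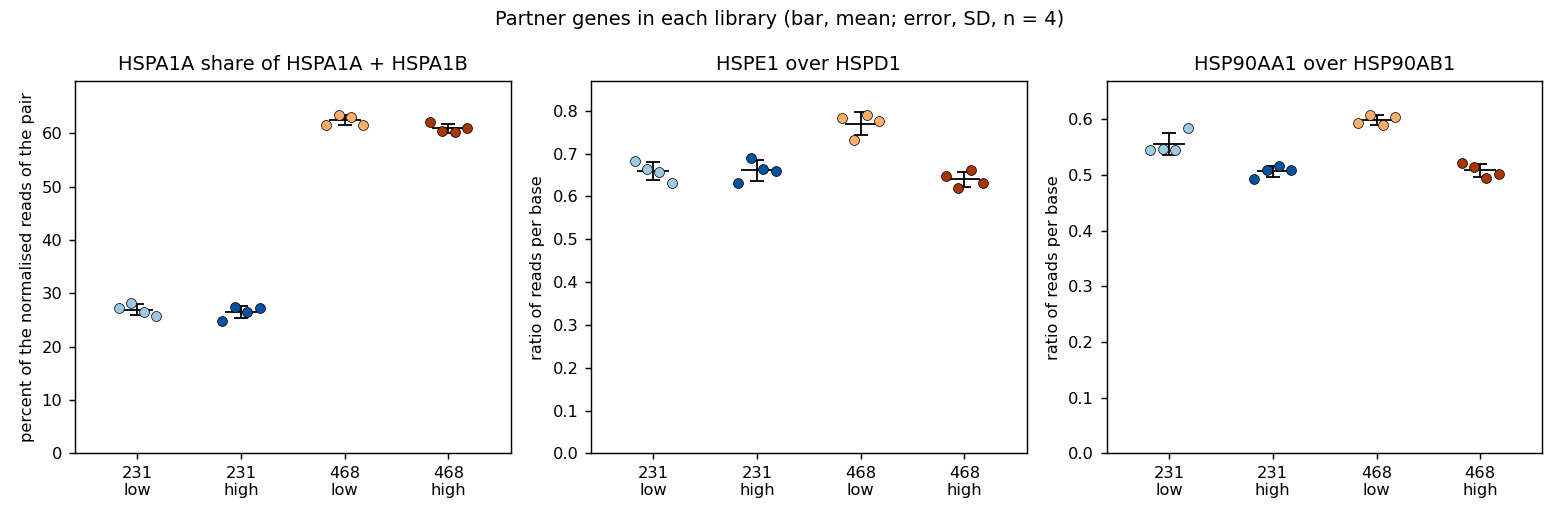
For each library of the 4 groups (x axes), the share of the HSPA1A and HSPA1B reads that fell on HSPA1A (left, percent), and the ratio per base of HSPE1 to HSPD1 (middle) and of HSP90AA1 to HSP90AB1 (right); all y axes start at 0, bars are means and error bars SD of 4 libraries. HSPA1A takes 25.7 to 28.1% of the pair in MDA-MB-231 and 61.6 to 63.4% in MDA-MB-468 in low glucose, the middle ratio is lower in high glucose in MDA-MB-468, and the right one in both lines.

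HSPB1 (chr7, 75931990 to 75933612 on hg19, plus strand), the small heat shock protein also called HSP27, changed most among the 10 genes. In MDA-MB-468 it had 3102, 2927, 3107 and 2725 normalised reads in low glucose and 4799, 4780, 5043 and 5306 in high glucose. Every high glucose library lay far above every low glucose library. HSPB1 rose by 0.75 ± 0.04 (adjusted p = 1.01e-09, limma), or by 68.1%, and by 0.71 to 0.77 under the alternatives. In MDA-MB-231 it had 2749, 2407, 2878 and 2227 in low glucose and 2922, 2600, 2719 and 2770 in high glucose. These groups overlapped, the change of 0.11 ± 0.06 was not called (adjusted p = 0.282), and the responses differed by 0.64 ± 0.10 (adjusted p = 7.17e-05).

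Between the lines in low glucose, 6 of the 10 genes were higher in MDA-MB-468, 2 were lower and 2 were not called, where 45.0% of 17115 genes were called higher and 40.4% lower, so that calls are the rule in this comparison. HSPA1A was 3.47-fold higher in MDA-MB-468 (log2 difference 1.80 ± 0.05, adjusted p = 2.9e-16, limma), HSPE1 2.89-fold (1.53 ± 0.04, adjusted p = 1.48e-16) and HSPD1 2.48-fold (1.31 ± 0.02, adjusted p = 2.66e-18). Over the alternatives the log2 difference ranged from 1.55 to 1.99 for HSPA1A, from 1.04 to 1.62 for HSPE1 and from 1.05 to 1.49 for HSPD1. HSPH1 and HSPA8 were higher by 0.83 ± 0.03 and 0.54 ± 0.03, the latter by 0.29 with a correction for transcript length. HSPA1B and HSP90AB1 were lower, with log2 differences of -0.38 ± 0.05 and -0.16 ± 0.02. HSPA1B ranged from -0.605 with the length correction to -0.18 under quantile rescaling, and HSP90AB1 was not called under quantile rescaling (adjusted p = 0.105). HSPB1 was higher by 0.21 ± 0.07 (adjusted p = 0.00736), with overlapping groups, but its difference was -0.18 with a correction for transcript length (adjusted p = 0.015). HSP90AA1 (-0.05 ± 0.03, adjusted p = 0.136) and DNAJB1 (-0.02 ± 0.02, adjusted p = 0.354) were not called. HSP90AA1 was called lower under 6 alternatives and DNAJB1 under 3. Both turned above 0 under quantile rescaling, where DNAJB1 was called higher (0.15, adjusted p = 1.55e-05, limma) and HSP90AA1 was not called. With the pair summed, HSPA1A and HSPA1B together were higher by 0.58 in MDA-MB-468 (adjusted p = 6.2e-10).

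In high glucose 6 genes were higher and 4 lower in MDA-MB-468, where 44.6% of all genes were called higher and 40.6% lower. HSPH1 was then only 0.29 ± 0.03 higher, since it had risen in one line and fallen in the other, and HSPB1 was 0.86 ± 0.07 higher (0.47 with a correction for transcript length). HSPA1B (-0.66), DNAJB1 (-0.11), HSP90AB1 (-0.09) and HSP90AA1 (-0.08) were lower, of which DNAJB1 and HSP90AA1 were not called under quantile rescaling (-0.01 and 0.01, adjusted p = 0.651 and 0.823). The log2 differences of HSPD1 and HSPA1A were 1.57 ± 0.02 and 1.45 ± 0.05.

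Other chaperone genes were taken in 8 lists that hold 111 genes besides the 10, of which 106 were found. In MDA-MB-231, 8 of the 102 genes tested rose and 6 fell in high glucose (median change -0.00), where 5.71% and 9.37% of all genes did. The largest rises among those above 5 CPM were those of HSF4, a heat shock factor known from the lens (0.36 ± 0.11), DNAJB9, a J-domain protein of the endoplasmic reticulum (0.31 ± 0.04), TIMM44, a subunit of the mitochondrial import motor (0.18 ± 0.05), and HSPA13, an HSP70 relative (0.15 ± 0.04), with adjusted p-values between 8.49e-05 and 0.028 (limma). The largest falls were those of FKBP5, an HSP90 cochaperone (-0.27 ± 0.05), DNAJC9, a J-domain protein and histone chaperone (-0.18 ± 0.04), CCT8, a subunit of the chaperonin TRiC (-0.16 ± 0.03), and PPP5C, a phosphatase bound to HSP90 (-0.14 ± 0.04). The calls of HSF4, TIMM44, HSPA13 and PPP5C were lost under 6, 6, 3 and 4 of the 19 alternatives. Over all 8 lists 14 genes were called, but 7 to 9 without replicate 2, 3 or 4 of high glucose or replicate 1 or 3 of low glucose.

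In MDA-MB-468, 31 of the 102 genes rose and 17 fell (median 0.01), where 24.9% and 22.7% of all genes did. ER chaperones rose in 8 of 14 cases and fell in none (median 0.12); HSPA5, the HSP70 of the endoplasmic reticulum, rose by 0.23 ± 0.03 (adjusted p = 4.38e-06, limma). Of 14 TRiC and prefoldin genes, which fold actin and tubulin, 6 rose and 1 fell (median 0.08), with CCT7 at 0.69 ± 0.03 (adjusted p = 1.6e-10). Of the list of the HSP70 system, 1 of 14 genes was higher and 4 were lower (median -0.02). HSPA1L, a testis HSP70, fell by 1.13 ± 0.15 (adjusted p = 9.59e-06) and HSPA4L, a relative of HSPH1, by 0.62 ± 0.07 (adjusted p = 3.69e-06). HSPA1L lies next to HSPA1A on the opposite strand and resembles it in sequence, so its reads, between 39.4 and 90.7 on average in the 4 groups, are uncertain.

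The remaining lists of MDA-MB-468 split more evenly, and their counts stand beside 24.9% of all genes called higher and 22.7% called lower. HSP90 cochaperones rose in 7 and fell in 5 of 19 cases, with TTC4 at 0.98 ± 0.07 (adjusted p = 5e-09, limma) and PPID, a cyclophilin, at -0.60 ± 0.05 (adjusted p = 8.67e-08). FKBP5 and PPP5C, which fell in MDA-MB-231, rose by 0.28 ± 0.04 and 0.30 ± 0.04 in MDA-MB-468. J-domain proteins rose in 3 and fell in 3 of 16 cases, with DNAJB2 at 0.66 ± 0.05, and mitochondrial chaperones and proteases rose in 5 and fell in 3 of 17. CRYAB, a small heat shock protein like HSPB1, was the only other small heat shock gene tested in this line; its libraries had a mean of 210 ± 8.32 normalised reads in low and 430 ± 5.63 in high glucose (1.03 ± 0.06, adjusted p = 9.8e-10), while in MDA-MB-231 it was at 0 in 6 of 8 libraries and was not tested.

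**Figure D5:**
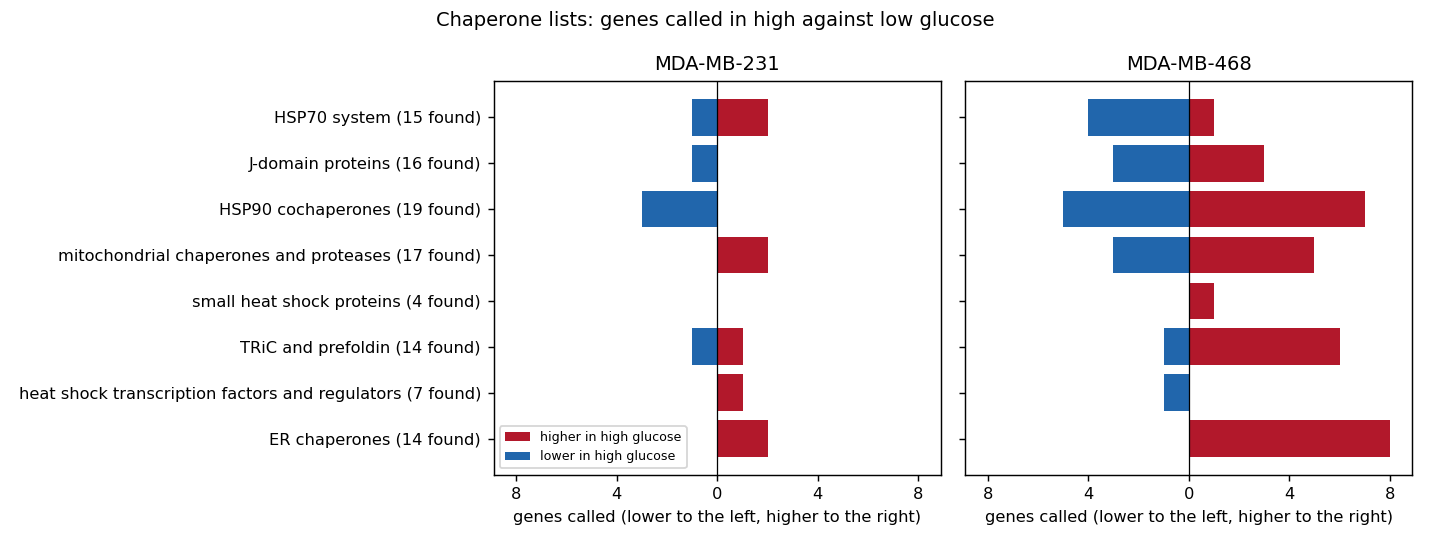
Number of genes called (x axis; limma, adjusted p under 0.05) higher (red, to the right) or lower (blue, to the left) in high glucose, for each of 8 chaperone lists (y axis) in MDA-MB-231 (left) and MDA-MB-468 (right). ER chaperones have 8 genes higher and none lower of 14 in MDA-MB-468, and all lists together have 8 higher and 6 lower in MDA-MB-231. Of all genes tested, 24.9% were called higher and 22.7% lower in MDA-MB-468, and 5.71% and 9.37% in MDA-MB-231.

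HSF1 was called in neither glucose comparison (-0.06 ± 0.04, adjusted p = 0.455, in MDA-MB-231 and 0.04 ± 0.04, adjusted p = 0.386, in MDA-MB-468, limma), with means of 2539 ± 154 and 2440 ± 103 normalised reads and of 2015 ± 69.7 and 2072 ± 68.7. FBXW7, a ubiquitin ligase subunit that acts on HSF1 among other proteins, was the gene of the list of heat shock factors and regulators that changed in MDA-MB-468 (-0.42 ± 0.07, adjusted p = 7.75e-05). In the test of the difference between the lines, 24 of the 105 genes on the lists had a higher and 22 a lower response in MDA-MB-468, where 17.0% and 13.9% of all genes did, with 8 higher and 0 lower of 14 ER chaperones and 1 higher and 6 lower of 15 HSP70 genes.

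Between the lines in low glucose, 98 of the 105 genes on the lists differed, 47 higher and 51 lower in MDA-MB-468, near the 45.0% and 40.4% of all genes. ER chaperones were lower in 12 of 14 cases (median -0.97), with HSPA5 at -2.21 ± 0.02 and DNAJB9 at -1.45 ± 0.06. Of the list of the HSP70 system, 6 of 15 genes were higher and 8 were lower (median -0.09). BAG3 and BAG1, exchange factors of HSP70, had log2 differences of -2.48 ± 0.03 and 1.67 ± 0.03. CCT6A was higher by 2.57 ± 0.03, HSPA2, a testis HSP70, by 3.37 ± 0.16, while TOMM34, which links HSP70 and HSP90 to mitochondrial import, stood at -2.01 ± 0.04. CRYAB, near 0 in MDA-MB-231, was called higher in MDA-MB-468, and no fold is given.

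The genes most like HSPH1 and HSPD1 in their pattern over the 8 libraries of a line were named by Pearson's r of the log2 values among 10636 or 11004 genes above 5 CPM; these r values describe libraries that share the same 2 groups and have no test. For HSPH1 they were OGA (r = 0.991), NUDT4 (0.989) and MAP1LC3B (0.987) in MDA-MB-231 and TAB3 (0.999) and EXD2 (0.995) in MDA-MB-468. For HSPD1 they were PGK1 (0.975), POLR1E (0.968) and MED30 (0.965) in MDA-MB-231 and TRMT10B (0.997), CHMP4B (0.996) and SPINT1-AS1 (0.993) in MDA-MB-468; the last is an antisense gene, whose reads cannot be told from its partner's without strand. None of these genes was named in both lines. Processed copies, searched by symbol, were found for HSP90AB1, HSP90AA1, HSPD1 and HSPB1 only, and they held few reads. HSP90AB3P and HSP90AA2P had at most 57.2 and 45.7 normalised reads in a library and HSPD1P1 at most 26.1. Reads placed on these copies were few beside those of HSP90AB1, HSP90AA1 and HSPD1. For the other genes of the 10 no processed copy was found among the deposited genes, so reads on such copies were not measured.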

How the data were processed

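RNA of MDA-MB-231 and MDA-MB-468 cells was sequenced as mRNA libraries, 4 per line and glucose level. For tumors of the same work the study's methods name a stranded kit, paired reads, trimming with Trimmomatic, alignment with TopHat to hg19, Ensembl annotation, DESeq2 for testing and edgeR for TMM-normalised CPM; which of these steps were used for the cell lines, and the counting program and its use of strand, are not given in the sources used here. The submitters' processing notes for these samples name hg38 and edgeR, so the build of the alignment is uncertain. The authors deposited 1 table of signal values for 18332 Ensembl genes: whole reads per gene that had been divided by library size factors. All values (100% in each library, tolerance 0.001 read) gave whole reads when the factor was undone, and these recovered counts gave depth, CPM and RPKM. Intervals were not needed at this depth, and the floor of 3 reads covers counting error only. Columns of per-sample values left unmapped numbered 0. Symbols, positions and transcript lengths came from GENCODE on GRCh37, with 16633 IDs matched to a symbol and 17418 to a length. Coordinates of genes are on hg19 and those of promoters on GRCh38.p14; no coordinate was converted.

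Values were tested on the log2(value + 1) scale with limma 3.58.1 (R 4.3.3; moderated, with a trend), after a filter of at least 0.5 CPM in at least 2 libraries, within each line and, for differences between lines and between responses, over all 16 libraries. P-values were adjusted over all genes by the Benjamini-Hochberg method. The unit turned out to be size-factor scaled reads, so the count models of DESeq2 1.42.0 and of edgeR 4.0.16 (its quasi-likelihood test) served as alternatives on the recovered counts. For the glucose comparisons in MDA-MB-231 and then MDA-MB-468, limma called 2245 and 7495 genes, edgeR 2244 and 7484, and DESeq2 2085 and 6632. Other alternatives were pseudocounts of 0.5 and 5, no filter or 1 CPM in 4 libraries, TMM and quantile rescaling, a loess correction of each library for transcript length, the replicate number as a block, each library left out in turn, and the longest transcript for levels. Summing HSPA1A and HSPA1B, and leaving libraries out of the list counts, were added after the data were seen. Scripts were tested on simulated data. Promoters were searched with Python 3.11.15 and Biopython 1.88. A comparison of proteins was not run.

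The 10 genes and the 8 lists were chosen with earlier results of these data known. Besides the 10 genes and HSF1, the text names from the lists, in each glucose comparison and in the comparison of lines in low glucose, the 4 largest called rises and falls among genes of at least 5 CPM, and in each line the 3 genes most correlated with HSPH1 and with HSPD1; 1 gene that this rule selects is not reported here. HSPA5 in MDA-MB-468, FKBP5 and PPP5C in MDA-MB-468, the look-alike copies and the ratios of partner genes were chosen after their values were seen.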

Additional observations from a re-analysis of the deposited data

Results flagged for a closer look

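The response to glucose differed between the lines in the test of the difference itself (limma, Benjamini-Hochberg, adjusted p under 0.05), given here as the log2 response of MDA-MB-468 minus that of MDA-MB-231, for HSPB1 (0.64), HSPD1 (0.27), HSPA8 (-0.19), HSPA1B (-0.28), HSPA1A (-0.34) and HSPH1 (-0.54) among the 10 heat shock genes. Of the other chaperone genes named, the difference was below 0 for HSPA1L (-1.29), PPID (-0.66), HSPA4L (-0.54), HSF4 (-0.53), FBXW7 (-0.33), TIMM44 (-0.23), HSPA13 (-0.21) and BAG1 (-0.13). It was above 0 for HSPA5 (0.15), BAG3 (0.18), CCT8 (0.22), PPP5C (0.44), DNAJB2 (0.53), FKBP5 (0.55), CCT7 (0.75) and TTC4 (0.89). CRYAB was also called with a difference above 0, but it was near 0 in MDA-MB-231 and no value is given. The call of BAG1 was lost under 14 of 27 alternatives, with adjusted p-values up to 0.113, and those of HSPA8 and PGK1 under quantile rescaling. Of the genes that resembled HSPH1 or HSPD1 it was below 0 for EXD2 (-0.55), TAB3 (-0.44), OGA (-0.26) and MAP1LC3B (-0.25) and above 0 for PGK1 (0.16) and CHMP4B (0.38).

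A single library stood apart from the other 3 of its group in 10 of 175 groups examined (by Dixon's gap over range), and chance gives about 1 in 20. Of the 10 genes this was HSP90AA1 in MDA-MB-468 in high glucose, where replicate 1 had 22848 normalised reads and the others 21310 to 21379, and HSPE1 in MDA-MB-231 in high glucose, where replicate 2 had 690 and the others 623 to 631. The call of HSP90AA1 did not depend on that library. Among the other genes, normalised reads of the lone library in MDA-MB-231 in high glucose were 3770 for CCT8 (replicate 1), 475 for HSPA4L (replicate 4), 598 for PPID (replicate 1) and 2496 for OGA (replicate 4). In MDA-MB-468 in high glucose that of TOMM34 was 995 (replicate 3). SPINT1-AS1 had 1.96 and 1.05 normalised reads in replicate 2 of MDA-MB-231 in low and high glucose, where the other libraries had 0. Both values lay below the floor of 3 reads, and any nonzero value beside libraries at 0 meets this rule. SPINT1-AS1 had 192 in replicate 2 of MDA-MB-468 in high glucose, lower than the others.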

How the results depend on the processing

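Of the 10 heat shock genes, 4 were called in MDA-MB-231, and this count ranged from 2 to 4 with a library left out; it was 2 without replicate 1 of high glucose and without replicate 2 of low glucose. The count of 8 in MDA-MB-468 ranged from 6 to 8 with a library left out. Over the pathway lists the 14 calls in MDA-MB-231 became 6 with the replicate block and 7 to 15 with a library left out. Same-numbered samples of the 2 glucose groups had correlations of deviations between -0.0400 and -0.00512 in MDA-MB-231. Those of MDA-MB-468 lay between 0.0167 and 0.0319. Values this near 0, taken from single libraries, show no clear pairing by replicate number but cannot exclude it. In MDA-MB-468 replicates 1 to 3 correlated best with their own number and replicate 4 with another (0.0613). With the block the calls among the 10 genes were 3 for the first line and 8 for the second.

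Directions turned as follows. With the correction for transcript length, DNAJB1 in MDA-MB-231 had a change of -0.0031 (the same with the block), the difference in response of HSPE1 was 0.017 (likewise) and the difference of HSPB1 between lines in low glucose was -0.18 (likewise). Under quantile rescaling HSP90AB1 stood at -0.078 in MDA-MB-468 and at -0.047 in the difference in response, HSP90AA1 at 0.088 between the lines in low glucose and at 0.0100 in high glucose, and DNAJB1 at 0.15 in low glucose. With a library left out, the difference in response of HSPE1 ranged from -0.022 to 0.028. The causes were not tested. Of the remaining values under the alternatives, 976 kept their direction and side of the threshold, 23 lost and 22 gained the call. They cover the 10 genes and the summed pair, which was set against HSPA1A and gained a call in MDA-MB-231.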
